A study of Homo sapiens with 10 samples.

Results

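The genes described here encode the matrix metalloproteinases (MMPs), the ADAMTS proteinases, the ADAMTS-like proteins and the tissue inhibitors of metalloproteinases (TIMPs). They were taken by symbol among the protein-coding genes of both count tables. The rule found 42 genes, 14 MMP, 19 ADAMTS, 5 ADAMTSL and 4 TIMP genes, among 24050 genes listed in either table. Of these, 39 were listed in both tables, 40 in the HEK293T table and 41 in the NPC table. Another 9 symbols of the rule that the annotation holds were in neither table and were not analysed here.

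RNA-seq was performed on wild-type (WT) cells and on cells with a CRISPR deletion of ZNF274 (KO), which encodes a KRAB zinc finger protein. The HEK293T samples, from a line derived from human embryonic kidney, comprised 3 WT and 3 KO libraries. The neural progenitor cell (NPC) samples were differentiated from the H1 human embryonic stem cell line and comprised 2 WT and 2 KO libraries. The submitters describe independent WT and KO clones, but the labels do not say which clone or which differentiation each library came from. The effect of the deletion and differences between clones or differentiations therefore cannot be told apart, and p-values measure only the spread between these libraries. In the WT libraries ZNF274 had 423 to 492 counts in HEK293T and 491 and 496 counts in NPCs, and it had 0 counts in all KO libraries.

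MMPs are zinc-dependent endopeptidases that are made as inactive precursors and are either secreted or anchored in the plasma membrane. ADAMTS proteinases are secreted and bind the extracellular matrix through thrombospondin motifs, and the ADAMTS-like proteins have the same motifs without a catalytic domain. TIMPs block the active site of MMPs, and TIMP3 also blocks ADAMTS enzymes. In the developing nervous system such enzymes are known for remodeling a matrix rich in hyaluronan-binding proteoglycans, such as versican, around migrating cells and growing vessels.

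The libraries held 21421013 to 32285876 counts on genes in HEK293T and 18621266 to 23035490 in NPCs. Levels are given as CPM, the counts scaled to the TMM-adjusted library size within each cell type. A floor of 3 counts corresponded to 0.0921 to 0.131 CPM in HEK293T and to 0.135 to 0.154 CPM in NPCs. Such floors cover counting error only. The NPC label was checked against marker genes. WT NPCs expressed SOX2 at 223 ± 5.53 CPM, PAX6 at 83.2 ± 6.68 CPM and NES at 2630 ± 518 CPM (SD, n = 2), while HES5 had 6 and 4 counts in the WT libraries. In KO NPCs 7 of 11 neural progenitor markers were lower, against 8.36% of all genes tested, with SOX2 at 16.9 ± 5.93 CPM (SD, n = 2) and SOX1 at 1 and 2 counts, and HES5 was at 0. NES was at 3135 ± 67.7 CPM there and was not called. The summed level of the 11 markers, which NES dominated, was 2945 to 3926 CPM in WT and 3204 to 3267 CPM in KO libraries.

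Other cell type markers moved with the genotype in NPCs, where 8.45% of all genes tested were called higher and 8.36% lower in KO. Of 12 mesenchymal markers 6 were higher in KO NPCs and 6 were not called. The summed level of the 12 was 1332 to 2220 CPM in WT and 5301 to 6173 CPM in KO libraries. COL1A1 carried most of the KO sum, at 601 ± 60.7 CPM in WT and 3480 ± 33.7 CPM in KO. COL1A2, at 953 ± 514 CPM in WT and 1003 ± 275 CPM in KO, was not called. Of 6 neural crest markers 3 were higher, with summed levels of 1.23 to 4.61 CPM in WT and 61.3 to 80.2 CPM in KO libraries. PAX3 carried most of the KO sum, at 47.6 ± 5.67 CPM, while TFAP2A, TFAP2B and FOXD3 were not called. FOXD3 had 0 counts in WT and 10 and 2 counts in KO libraries. Smooth muscle markers summed to 1063 to 1451 CPM in WT and 4143 to 4237 CPM in KO libraries, with 2 of 5 called higher. TAGLN, at 942 ± 180.0 CPM in WT and 3498 ± 4.87 CPM in KO, carried most of that sum, and ACTA2 and CNN1 were not called. Of 8 neuron markers 4 were lower and 1 higher, and their summed level went from 1082 to 1174 CPM in WT to 174 to 218 CPM in KO libraries. MAP2 carried most of that sum, at 1041 ± 68.3 CPM in WT and 147 ± 26.2 CPM in KO, while TUBB3 and STMN2 were not called. Of 4 pluripotent markers measured LIN28A was lower, from 74.2 ± 14.8 CPM to 1.49 ± 0.503 CPM, and ZFP42 was higher. The list summed to 139 to 161 CPM in WT and 65.1 to 70.4 CPM in KO libraries. DPPA4, at 75.1 ± 1.37 CPM in WT and 60.8 ± 3.55 CPM in KO, carried most of the KO sum and was not called. NANOG had 5 and 3 counts in WT and 0 in KO libraries and was not called. Endothelial markers moved both ways, with 3 higher and 1 lower of 5 measured, and of 6 epithelial markers 2 were higher. By edgeR 0 of 4 leukocyte markers measured and 0 of 4 astrocyte markers were called, with 0 and 1 of them at an unadjusted p below 0.05. The part of these markers' cell types in the results on NPCs was not tested. In bulk samples fewer cells of a type and less RNA per cell cannot be told apart.

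The first comparison asked which of these genes differed between KO and WT HEK293T cells. None did by the rule used here, an adjusted p below 0.05 in edgeR's quasi-likelihood test and a fold change (FC) above 2. Of 40 members 33 passed the filter on low counts and 0 were called, against 0.489% of all genes tested. At an unadjusted p below 0.05 there was 1, and DESeq2 and voom also called 0. Their log2 FC had a median of -0.03, beside 0.01 over all genes, and was above 0 for 15 of the 33.

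The gene with an unadjusted p below 0.05 was ADAMTS13, which encodes the proteinase that cleaves von Willebrand factor. Its levels were 1.04, 1.41 and 0.813 CPM in WT and 3.36, 2.12 and 2.21 CPM in KO HEK293T. It was the only member whose KO libraries all lay on one side of the WT libraries, which 12.4% of all genes tested did in either direction. Its log2 FC was 1.23 ± 0.35 (SE), with an unadjusted p of 0.00528 and an adjusted p of 0.36 in edgeR.

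In HEK293T the inhibitor TIMP1 had the highest level per length. It averaged 71.8 ± 10.2 CPM per kb of exon in WT (SD, n = 3), followed by ADAMTS1 at 10.9 ± 4.11, TIMP2 at 7.30 ± 0.226, TIMP3 at 4.58 ± 1.55 and MMP15 at 3.79 ± 1.10 CPM per kb. The spreads of ADAMTS1 and TIMP2 overlapped, as did those of TIMP3 and MMP15. By CPM TIMP1 was at 119, 89.4 and 103 CPM in WT and at 128, 62.3 and 115 CPM in KO libraries, and TIMP2 was at 45.3 ± 1.41 and 57.6 ± 23.5 CPM (SD, n = 3). TIMP3 was at 21.0 ± 7.14 CPM in WT and 18.9 ± 3.09 CPM in KO. The groups overlapped for all of them. ADAMTS1, a proteinase of versican and aggrecan, was at 44.7, 97.4 and 96.0 CPM in WT and 25.3, 81.0 and 94.6 CPM in KO libraries. Libraries S15 of WT and S18 of KO were the low ones. MMP15, a membrane-anchored proteinase, was at 16.04 ± 4.64 CPM in WT and 16.6 ± 5.76 CPM in KO.

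The other members with a mean of at least 1 CPM in HEK293T overlapped between genotypes. ADAMTS9 was at 8.71, 10.3 and 8.27 CPM in WT and at 4.54, 9.03 and 2.50 CPM in KO, and ADAMTS3 was at 9.80 ± 2.13 and 12.0 ± 3.25 CPM. ADAMTS15, ADAMTS17, ADAMTS2, ADAMTS19 and ADAMTS20 lay between 1.15 and 7.48 CPM on average in WT. MMP2, MMP11, MMP16 and MMP17 lay between 1.07 and 4.35 CPM on average in WT. ADAMTSL5 was at 1.32 ± 0.487 CPM in WT and 1.34 ± 0.164 CPM in KO. A few genes with high levels in NPCs were close to the floor in HEK293T, among them MMP14 with 27 counts over the 6 libraries and ADAMTS12 with 1 count, and TIMP4 had 4 counts. MMP19, MMP23B, ADAMTS16 and ADAMTSL2 had 0 counts in all 6.

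**Figure D1:**
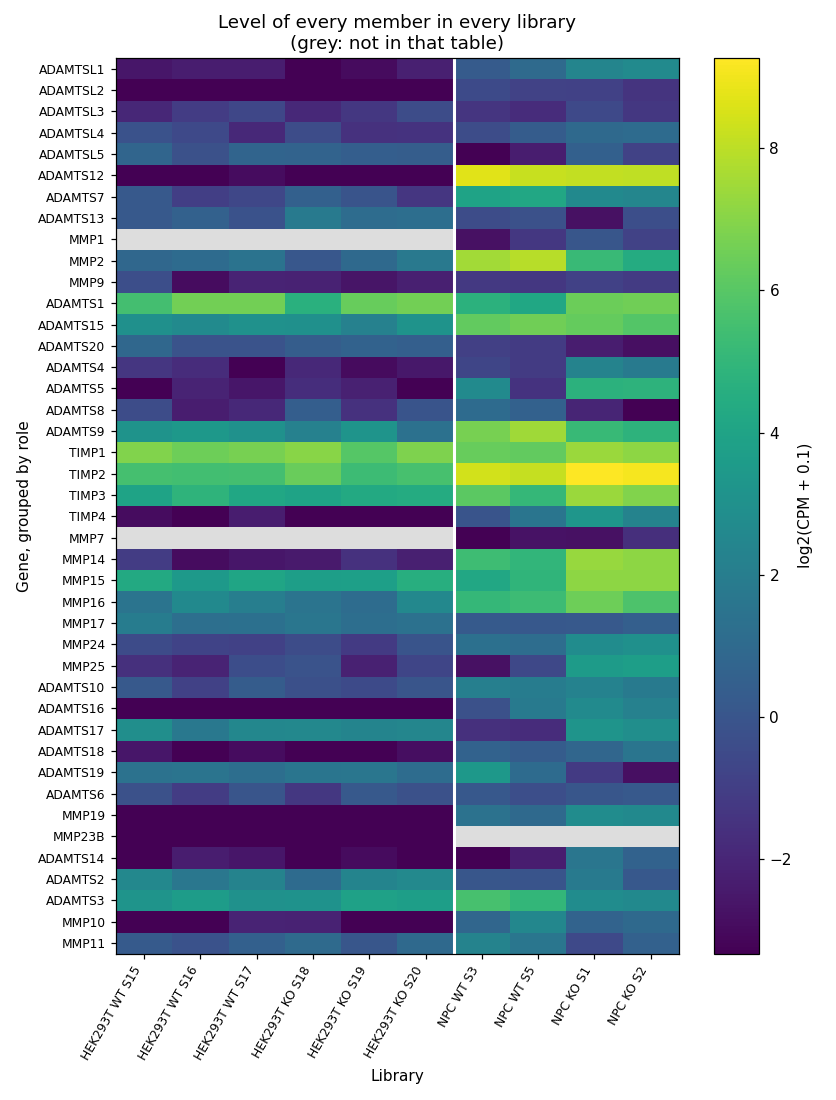
Level of each member (rows, grouped by role) in each library (columns, HEK293T left and NPC right of the white line), as log2(CPM + 0.1) on a color scale. MMP2, MMP14, ADAMTS12 and TIMP2 are brighter in all NPC libraries than in any HEK293T library, and MMP14 and MMP15 are brighter in the KO than in the WT NPC libraries.

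The second comparison asked the same of KO and WT NPCs. All 41 members in the NPC table passed the filter and 21 of them (51.2%) were called, against 16.8% of all genes. There were 14 higher in KO, against 8.45% of all genes, and 7 lower, against 8.36%. At an unadjusted p below 0.05 there were 24, beside 8300 of all 20577 genes tested. The median log2 FC was 0.97, beside -0.02 over all genes. The libraries did not overlap between genotypes for 34 of the 41 members, against 67.1% of all genes. When KO library S1 was left out, 8 members were called higher and 6 lower, and without KO library S2 these counts were 10 and 6. By class the called members were 5 higher and 2 lower of 13 MMP genes, 5 higher and 5 lower of 19 ADAMTS genes, and 2 higher of 5 ADAMTSL genes and of 4 TIMP genes.

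**Figure D2:**
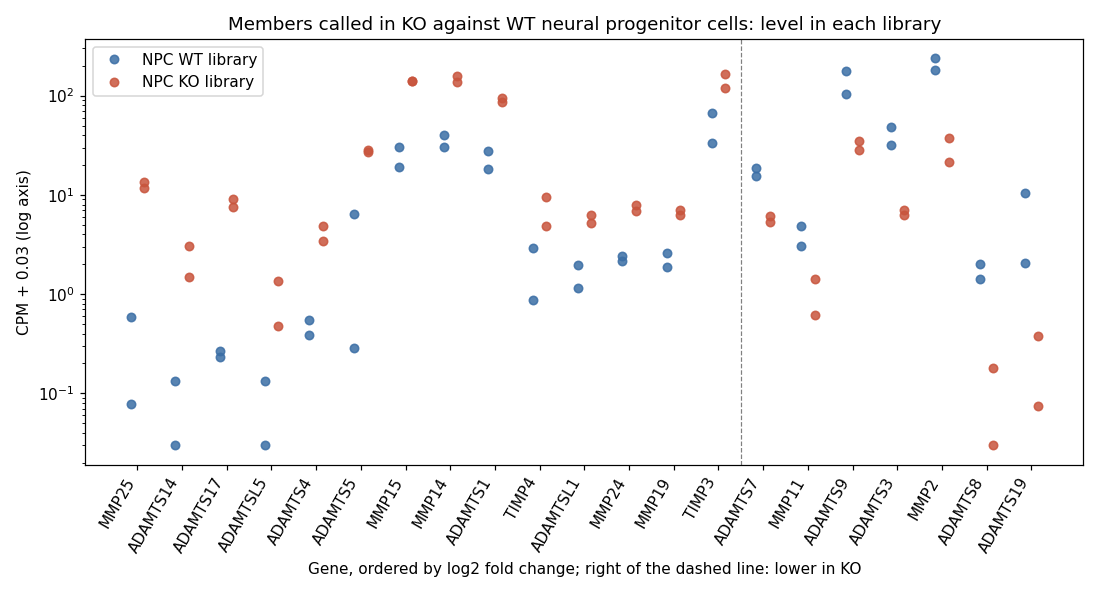
Level in each NPC library (CPM + 0.03, log axis) of the 21 members called, with blue points for the 2 WT and red points for the 2 KO libraries, ordered by log2 FC. The 14 genes left of the dashed line were higher in both KO libraries than in either WT library, and the 7 right of it were lower in both.

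The upstream sequences of a few members are shown because several genes changed together in KO NPCs while others with like activities did not. They are the 250 bases before the RefSeq start on GRCh38.p14. MMP14 and MMP15 rose and lie at chr14:22836335-22836584 on the plus strand and chr16:58025504-58025753 on the plus strand. ADAMTS17 rose and lies at chr15:100341976-100342225 on the minus strand. ADAMTS3 fell and lies at chr4:72569222-72569471 on the minus strand. MMP10, of the secreted MMP cluster on chromosome 11, was not called and lies at chr11:102780629-102780878 on the minus strand. Capitals mark matches on either strand to the GC box GGGCGG, to the AP-1 motif TGANTCA or to the TATA box TATAAA, and a match to one motif cannot overlap a match to another.
MMP14: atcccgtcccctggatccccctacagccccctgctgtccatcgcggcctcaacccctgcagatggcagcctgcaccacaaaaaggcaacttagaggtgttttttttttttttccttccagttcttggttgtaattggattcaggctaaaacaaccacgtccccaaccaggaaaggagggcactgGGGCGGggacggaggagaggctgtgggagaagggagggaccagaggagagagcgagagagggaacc
MMP15: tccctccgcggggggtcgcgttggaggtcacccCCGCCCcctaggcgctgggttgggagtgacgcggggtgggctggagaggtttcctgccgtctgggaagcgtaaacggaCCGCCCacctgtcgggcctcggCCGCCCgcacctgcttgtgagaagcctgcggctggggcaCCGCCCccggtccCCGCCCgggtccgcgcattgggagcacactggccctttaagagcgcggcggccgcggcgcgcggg
ADAMTS17: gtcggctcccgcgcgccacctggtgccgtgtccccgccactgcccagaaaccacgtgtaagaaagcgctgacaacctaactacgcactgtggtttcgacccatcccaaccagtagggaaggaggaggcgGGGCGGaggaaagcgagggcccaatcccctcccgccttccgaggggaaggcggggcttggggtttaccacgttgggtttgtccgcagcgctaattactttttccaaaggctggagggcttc
ADAMTS3: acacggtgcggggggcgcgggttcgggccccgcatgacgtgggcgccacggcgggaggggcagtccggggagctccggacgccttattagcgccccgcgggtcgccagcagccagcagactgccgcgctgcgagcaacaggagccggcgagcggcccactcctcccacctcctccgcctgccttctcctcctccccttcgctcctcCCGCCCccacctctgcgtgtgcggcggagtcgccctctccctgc
MMP10: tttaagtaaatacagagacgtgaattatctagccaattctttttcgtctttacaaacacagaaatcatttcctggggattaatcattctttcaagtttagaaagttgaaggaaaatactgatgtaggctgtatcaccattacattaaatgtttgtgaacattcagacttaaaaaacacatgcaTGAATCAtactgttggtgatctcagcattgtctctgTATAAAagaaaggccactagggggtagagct

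RefSeq promoters were found for 27 of the 42 members. A GC box lay in 23 of these 27 (85.2%), beside 42.6% of all 35116 promoters in the RefSeq table. It lay in 8 of 9 promoters of members called higher in KO NPCs and in 4 of 4 of those called lower, so the match was there in both directions. AP-1 motifs lay in 3 of 27 (11.1%), beside 6.57% of all promoters, and TATA boxes in 4 of 27 (14.8%), beside 10.7%. The members with an AP-1 motif were ADAMTS12, MMP10 and MMP7, none of which was called. In MMP10 and MMP7 it began 67 bases before the start, and a TATA box began 31 and 30 bases before it. These matches are letters in a window and show no binding.

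The membrane-type MMPs are anchored in the plasma membrane and cleave matrix at the cell surface. Of 6 genes 4 rose in KO NPCs and 0 fell, against 8.45% and 8.36% of all genes. MMP14, on hg19 at chr14:23305769-23318250, encodes the activator of the MMP2 precursor and a collagenase. It was at 40.4 and 30.6 CPM in WT and at 158 and 138 CPM in KO libraries, a log2 FC of 2.06 ± 0.16 (SE, adjusted p = 2.67e-04). MMP15, at chr16:58059658-58080805, was at 18.9 and 30.2 CPM in WT and at 141 CPM in each KO library, a log2 FC of 2.52 ± 0.22 (adjusted p = 3.33e-04). Both KO libraries lay far above both WT libraries for these genes.

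MMP24 and MMP25 rose as well. MMP24, known from neural tissue, was at 2.41 and 2.15 CPM in WT and at 6.87 and 7.84 CPM in KO libraries, a log2 FC of 1.69 ± 0.29 (adjusted p = 0.00518), and was not called without KO library S2. MMP25, which has a lipid anchor and is known from leukocytes, was at 0.0473 and 0.563 CPM in WT, where S3 had 1 count and S5 had 11, and at 11.7 and 13.4 CPM in KO libraries. Its log2 FC was 5.37 ± 0.64 (adjusted p = 0.00126), and it was 4.47 without WT library S3 and 7.88 without S5. The exons of MMP24 and MMP25 overlap genes on the opposite strand over 18.4% and 30.6% of their length, and the strand option of the read counter is not given in the sources used here. MMP16 was at 33.0 and 39.4 CPM in WT and at 89.2 and 54.4 CPM in KO libraries, with an adjusted p of 0.0195 and an FC of 1.99, just under the threshold. MMP17 was at 1.06 ± 0.046 CPM in WT and had a log2 FC of 0.15 (adjusted p = 0.846).

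The gelatinases degrade denatured collagen and basement membrane collagen. MMP2, at chr16:55423612-55540603, fell in KO NPCs. It was at 181 and 238 CPM in WT and at 37.1 and 21.3 CPM in KO libraries, a log2 FC of -2.85 ± 0.27 (adjusted p = 5.11e-04). Thus the gene for MMP14 rose in the libraries in which the gene for its known substrate, the MMP2 precursor, fell. MMP9, the other gelatinase, had 6 to 9 counts in every NPC library and was not called. MMP11, a stromelysin that furin activates inside the cell, fell from 4.78 and 3.02 CPM to 0.593 and 1.40 CPM, a log2 FC of -1.96 ± 0.50 (adjusted p = 0.0268), and without KO library S1 it was not called. Without KO library S2 its log2 FC was -2.72.

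The remaining MMP genes reached at most 6.96 CPM in any library. MMP19, which cleaves basement membrane proteins, was at 2.56 and 1.84 CPM in WT and at 6.96 and 6.26 CPM in KO libraries, a log2 FC of 1.58 ± 0.31 (adjusted p = 0.00971). It was not called when either KO library was left out, and 17.6% of its exons overlap a gene on the opposite strand. MMP10, a stromelysin, was at 1.70 and 5.58 CPM in WT and at 1.53 and 1.85 CPM in KO libraries, and it was not called. The collagenase MMP1 had 1 and 6 counts in WT and 19 and 10 in KO libraries, and the matrilysin MMP7 had at most 5 counts in any library, and neither was called.

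The ADAMTS genes whose products cleave versican, aggrecan and related proteoglycans moved in both directions, with 3 higher and 2 lower in KO NPCs of 7, against 8.45% and 8.36% of all genes. ADAMTS1, at chr21:28208074-28217728, was at 27.4 and 18.02 CPM in WT and at 86.2 and 93.6 CPM in KO libraries, a log2 FC of 1.99 ± 0.20 (adjusted p = 6.84e-04). ADAMTS9, at chr3:64501330-64673676, went the other way, from 104 and 178 CPM to 35.3 and 28.1 CPM, a log2 FC of -2.15 ± 0.26 (adjusted p = 0.00133). Both enzymes are known to cleave versican. Per length ADAMTS9 was the higher of the pair in WT, at 13.2 ± 4.94 CPM per kb against 3.11 ± 0.905 for ADAMTS1, and the lower in KO, at 2.97 ± 0.477 against 12.3 ± 0.719 CPM per kb (SD, n = 2).

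ADAMTS4 and ADAMTS5 encode the main aggrecanases. ADAMTS4 was at 0.521 and 0.358 CPM in WT and at 4.84 and 3.38 CPM in KO libraries, a log2 FC of 3.20 ± 0.45 (adjusted p = 0.0024). ADAMTS5 was at 6.39 and 0.256 CPM in WT and at 27.0 and 28.3 CPM in KO libraries. Its WT libraries were far apart, the log2 FC was 3.04 ± 0.90 (adjusted p = 0.0428), and it was not called by DESeq2, with robust estimation, with edgeR's filterByExpr or without either KO library. Its log2 FC was 6.72 without WT library S3 and 2.11 without S5.

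ADAMTS8 had 42 and 27 counts in WT and 3 and 0 in KO libraries, and it fell (adjusted p = 0.0124). The ratio of WT to KO was 24.0, with an exact 95% interval of 7.88 to 119 that covers counting error only. The fitted log2 FC was -4.45, and it was -8.15 without KO library S1 and -3.47 without S2. ADAMTS15, at 75.7 and 94.3 CPM in WT and 78.0 and 60.1 CPM in KO libraries, was not called and its groups overlapped. ADAMTS20 had 16 counts over the WT and 3 over the KO libraries, a ratio of WT to KO of 5.57 (95% interval 1.59 to 29.8), and was not called (adjusted p = 0.138).

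The procollagen N-proteinases remove the amino-terminal propeptide of fibrillar procollagens. ADAMTS3, at chr4:73146686-73434938, which also processes the lymphatic growth factor VEGFC, fell from 48.4 and 31.8 CPM to 6.96 and 6.26 CPM, a log2 FC of -2.60 ± 0.24 (adjusted p = 4.56e-04). ADAMTS14 rose from 0 and 2 counts in WT to 61 and 32 counts in KO libraries (adjusted p = 0.00635). The ratio was 44.5, with a 95% interval of 12.0 to 373, and the gene was not called without KO library S1. The fitted log2 FC, which depends on the prior count here, was 5.33, and it was 4.36 without WT library S3, 8.55 without S5 and 4.70 without KO library S1. ADAMTS2 was at 0.947 and 0.870 CPM in WT and at 3.41 and 0.991 CPM in KO libraries and was not called (adjusted p = 0.182). The sum of the 3 genes was 32.8 to 49.4 CPM in WT and 8.69 to 13.4 CPM in KO libraries.

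ADAMTS7 and ADAMTS12 encode proteinases that cleave cartilage oligomeric matrix protein. ADAMTS7 fell from 15.5 and 18.8 CPM to 6.12 and 5.36 CPM, a log2 FC of -1.58 ± 0.22 (adjusted p = 0.00235). Pseudogene copies of ADAMTS7 are known, and whether they share reads with it was not tested. ADAMTS12 was the most abundant ADAMTS gene in NPCs, at 419 and 291 CPM in WT and 273 and 270 CPM in KO libraries, and it was not called (log2 FC -0.39 ± 0.17, adjusted p = 0.133).

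Among the other ADAMTS genes ADAMTS17, whose mutations cause a Weill-Marchesani-like syndrome, showed the lowest adjusted p of all members. It had 5 and 4 counts in WT and 184 and 166 in KO libraries, or 0.237 and 0.205 CPM and 9.09 and 7.48 CPM. Its log2 FC was 5.19 ± 0.39 (adjusted p = 2.2e-04). ADAMTS19, known from heart valve disease, fell from 10.51 and 2.05 CPM to 0.346 and 0.0451 CPM, with a log2 FC of -5.00 ± 1.02 (adjusted p = 0.0112) and 1 count in KO library S2. It was not called without S2, by voom or with robust estimation. The log2 FC was -3.38 without WT library S3, -5.76 without S5, -6.95 without KO library S1 and -4.18 without S2.

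The rest of this group was not called. ADAMTS10, which binds fibrillin, was at 3.95 ± 0.304 CPM in WT and 4.08 ± 0.932 CPM in KO (SD, n = 2). ADAMTS16 was at 0.757 and 3.43 CPM in WT and at 6.32 and 4.51 CPM in KO libraries, and ADAMTS18 was at 1.47 and 1.18 CPM and at 1.68 and 2.84 CPM. Both had KO levels above WT levels, with adjusted p of 0.143 and 0.236. ADAMTS13 and ADAMTS6 reached at most 1.04 CPM in any NPC library.

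The ADAMTS-like proteins have no catalytic domain, and some bind fibrillin microfibrils. ADAMTSL1 rose from 1.14 and 1.95 CPM to 5.14 and 6.31 CPM, a log2 FC of 1.89 ± 0.38 (adjusted p = 0.0099), and was not called without KO library S2. ADAMTSL5 rose from 0 and 2 counts to 27 and 10 counts (adjusted p = 0.0432), a ratio of 17.7 with a 95% interval of 4.57 to 152. This call was lost by voom and without either KO library. The fitted log2 FC was 4.01, and it was 3.04 without WT library S3, 7.24 without S5 and 3.04 without KO library S1. ADAMTSL4, which binds fibrillin and whose mutations displace the lens, was at 0.663 and 1.18 CPM in WT and at 1.88 and 2.03 CPM in KO libraries and was not called (adjusted p = 0.131). Its exons share 28.2% of their length with another protein-coding gene model on the same strand and 11.4% with an antisense gene, neither of which is in the tables. ADAMTSL2 and ADAMTSL3 had 4 to 13 counts in every library.

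All 4 inhibitor genes were higher in both KO libraries than in either WT library, where 67.1% of all genes had groups that did not overlap in either direction, and 2 of them were called, against 16.8% of all genes. TIMP3, at chr22:33197691-33259028, encodes the inhibitor that stays bound to the matrix and also blocks ADAMTS enzymes. It was at 67.4 and 33.5 CPM in WT and at 164 and 119 CPM in KO libraries, a log2 FC of 1.48 ± 0.32 (adjusted p = 0.0129), and it was not called with robust estimation or without KO library S1. Without WT library S3 its log2 FC was 2.08. TIMP4 was at 0.852 and 2.87 CPM in WT and at 9.53 and 4.82 CPM in KO libraries, a log2 FC of 1.95 ± 0.59 (adjusted p = 0.0455). The log2 FC was 1.32 without WT library S3 and 3.05 without S5. This was the least stable call, kept in 6 of 12 alternatives, and 14.2% of the exons of TIMP4 overlap SYN2 on the opposite strand.

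TIMP1 and TIMP2 passed the adjusted p but not the FC threshold. TIMP1, at chrX:47441807-47446188, was at 81.0 and 74.4 CPM in WT and at 166 and 139 CPM in KO libraries, an FC of 1.96 (adjusted p = 0.0019). TIMP2, which also takes part in the activation of the MMP2 precursor by MMP14, was at 341 and 283 CPM in WT and at 615 and 551 CPM in KO libraries, an FC of 1.87 (adjusted p = 0.00242). Their groups were apart by more than the spread within either group.

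**Figure D3:**
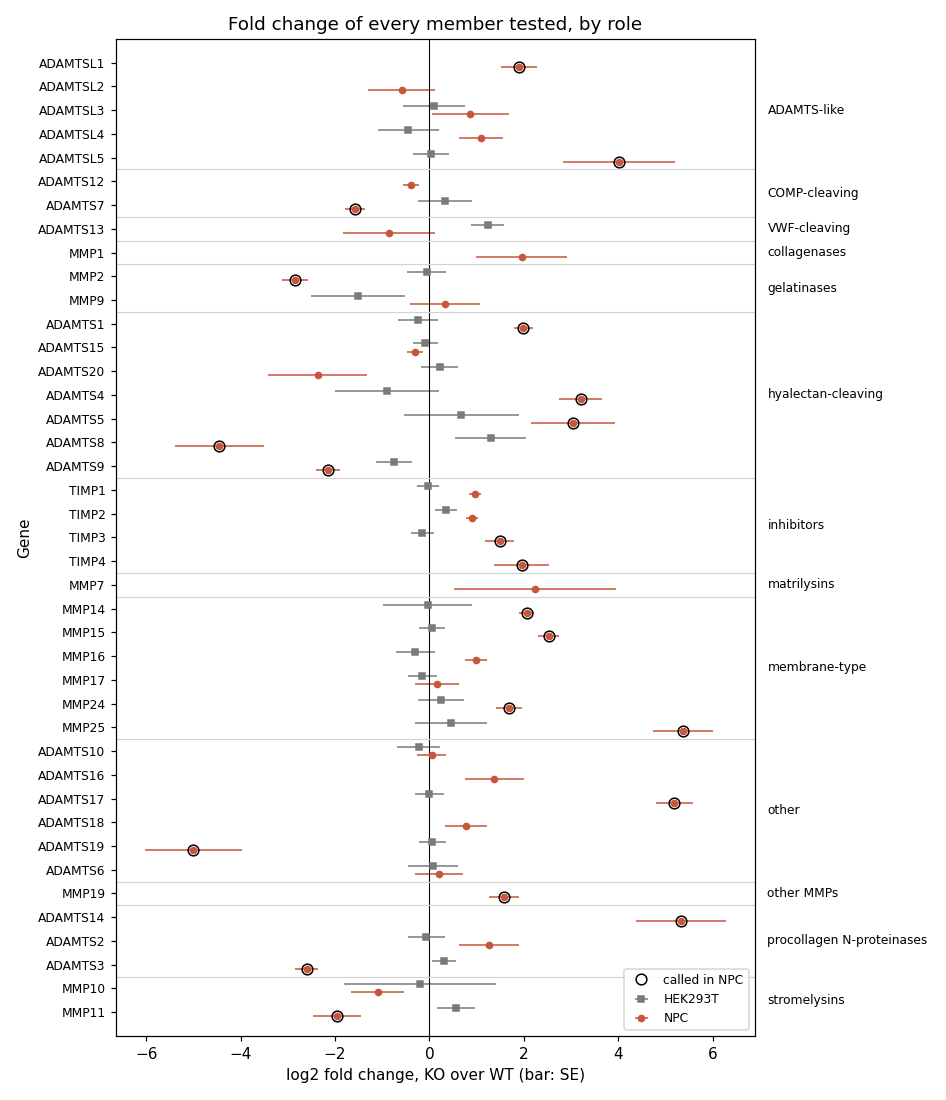
Log2 FC of KO over WT with its SE for each member tested in at least 1 cell type, gray squares for HEK293T and red circles for NPCs, with a black ring around members called in NPCs. No gray square is ringed because 0 members were called in HEK293T, and genes with both groups at or under the floor of 3 counts per library have no square.

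Levels were also summed per class after division by exon length, as CPM per kb, since levels of different genes compare only per length. The summed MMP level was 57.9 and 72.9 in WT and 90.1 and 80.1 in KO NPCs. MMP2 made up 66.5% and 69.4% of it in the WT libraries, and MMP14 (38.0%) or MMP15 (41.6%) was the leading gene in the KO libraries S1 and S2.

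The summed ADAMTS level was 83.3 and 74.7 CPM per kb in WT and 65.9 and 61.7 in KO NPCs, with ADAMTS12 as the leading gene in all 4 libraries. The summed TIMP level was 126 and 107 CPM per kb in WT and 257 and 214 in KO NPCs, and TIMP1 made up 44.4% to 48.2% of it. The ratio of summed MMP and ADAMTS levels to the TIMP level was 1.12 and 1.38 in WT and 0.607 and 0.661 in KO NPCs. For all of these sums the groups did not overlap, and with 2 libraries against 2 an exact two-sided permutation test cannot go below p = 0.333. In HEK293T the same ratio was 0.136 to 0.411 over the 6 libraries, and the genotypes overlapped. These are RNA levels and give no enzyme activity, and the ratio does not weigh which TIMP blocks which enzyme.

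**Figure D4:**
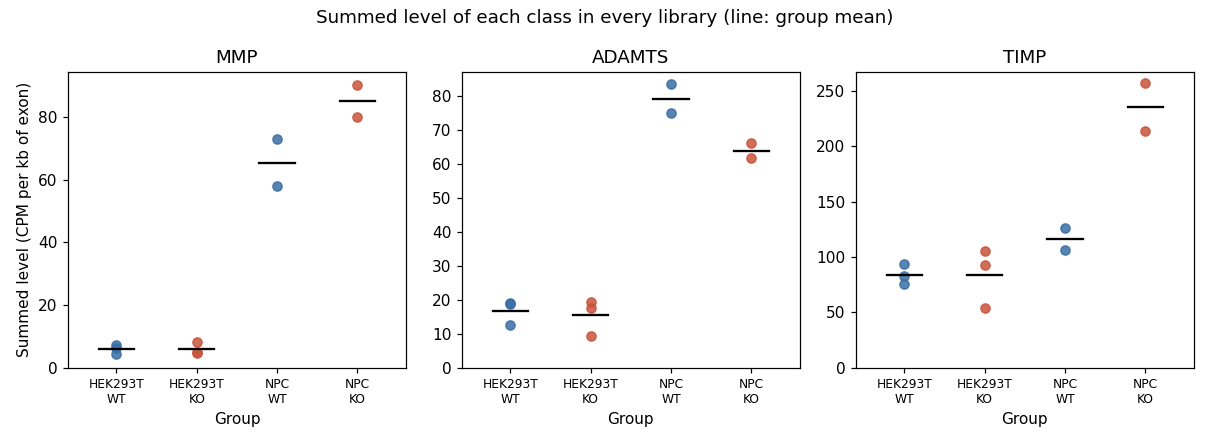
Summed level of the MMP, ADAMTS and TIMP genes (CPM per kb of exon) in every library by group, with a line at each group mean. The TIMP sum is 257 and 214 in the KO NPC libraries and at most 126 in the other groups, while HEK293T libraries have MMP sums of 4.43 to 8.05 and ADAMTS sums of 9.26 to 19.3.

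The third comparison tested whether the effect of the KO differed between NPCs and HEK293T cells, as an interaction over all 10 libraries. Of 39 members tested 13 were called. The effect was higher in NPCs for 8, against 6.01% of all genes, and lower for 5, against 6.22%. The count of higher calls was 4 without HEK293T WT library S17, 5 without S16 and 9 without HEK293T KO library S18 or S20. It was lowest without NPC KO library S1, where a lone KO library remained. MMP15 was at 16.04 ± 4.64 CPM in WT HEK293T (SD, n = 3) and at 24.5 ± 7.998 CPM in WT NPCs (SD, n = 2). These levels were scaled within each cell type. The log2 FC of MMP15 was 0.05 in HEK293T and 2.52 in NPCs, a difference of 2.49 ± 0.42 (adjusted p = 0.00226). ADAMTS17 was at 5.42 ± 2.16 CPM in WT HEK293T and had a difference of 5.22 ± 0.58 (adjusted p = 1.41e-04). ADAMTS3 had a difference of -2.88 ± 0.40 (adjusted p = 6.16e-04) and MMP2 one of -2.78 ± 0.52 (adjusted p = 0.00398). These 4 genes kept the call in all 17 alternatives, but ADAMTS17 had only 5 and 4 counts in the WT NPC libraries, close to the floor.

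The other calls of the difference were ADAMTS1, ADAMTS4, ADAMTS14, ADAMTSL5, MMP25 and TIMP3 on the higher side and ADAMTS8, ADAMTS19 and MMP11 on the lower side. Of these, ADAMTS19 kept the call in all 17 alternatives and ADAMTS8 and MMP25 in 16. ADAMTS14, TIMP3, ADAMTSL5 and MMP11 kept it in 14, 14, 13 and 12, and each lost it without KO NPC library S1. ADAMTS1 and ADAMTS4, kept in 9 and 8, both lost it without KO NPC library S1 or S2. MMP14 was not called (2.09 ± 0.80, adjusted p = 0.0994), with 27 counts over all HEK293T libraries. TIMP1 (1.013 ± 0.35, adjusted p = 0.0705), TIMP2 (0.58 ± 0.34, adjusted p = 0.292) and ADAMTS9 (-1.38 ± 0.55, adjusted p = 0.109) were not called either, so a difference between the cell types was not shown for them. For MMP19, ADAMTS16 and ADAMTSL2 the 0 counts in HEK293T leave nothing to compare.

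Genes that work with these proteinases were taken from lists of the pathway, and their counts stand against 8.45% of all genes higher and 8.36% lower in KO NPCs. Of 19 activators and inhibitors outside the family 7 rose and 5 fell in KO NPCs, with a median log2 FC of 0.18. The plasminogen activator PLAU rose from 14.6 ± 6.29 to 390.1 ± 35.8 CPM (SD, n = 2) and its receptor PLAUR from 4.31 ± 2.01 to 145 ± 5.09 CPM, log2 FCs of 4.74 ± 0.29 and 5.08 ± 0.29 (SE). RECK, a membrane-anchored inhibitor of MMPs, rose from 7.51 ± 2.51 to 29.0 ± 3.52 CPM, while the broad proteinase inhibitor A2M and the serine proteinase inhibitors SERPINE2 and TFPI2 fell. FURIN, which activates precursors of membrane-type MMPs and MMP11, was at 38.4 ± 5.15 and 72.9 ± 4.75 CPM, with an adjusted p of 0.00329 and an FC of 1.90, under the threshold.

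Of 16 other metzincins, the wider family of zinc proteinases, 8 rose and 0 fell, with a median log2 FC of 0.77 beside -0.02 over all genes. ADAM12 rose from 4.84 ± 3.43 to 99.1 ± 21.5 CPM, PAPPA from 131 ± 80.4 to 578 ± 4.76 CPM and ADAM19 from 54.3 ± 3.66 to 236 ± 17.1 CPM. Of 18 substrates 10 rose and 2 fell, with a median of 1.82. COL1A1 rose from 601 ± 60.7 to 3480 ± 33.7 CPM and FN1 from 435 ± 51.0 to 1771 ± 526 CPM. VCAN, the substrate of ADAMTS1 and ADAMTS9, fell from 529 ± 40.4 to 130 ± 6.73 CPM, and COL2A1 fell from 339.5 ± 149 to 45.9 ± 19.1 CPM. COL1A1, COL1A2, COL3A1 and DCN are also among the mesenchymal markers above, and VWF is among the endothelial markers.

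Of 13 AP-1, ETS and RUNX factors known to bind MMP promoters 4 rose and 0 fell in KO NPCs, against the same shares of all genes. ETS1 rose from 61.5 ± 20.9 to 321 ± 5.04 CPM, FOSL1 from 8.04 ± 4.27 to 45.1 ± 3.87 CPM, RUNX2 from 1.37 ± 0.737 to 7.81 ± 0.225 CPM and ETS2 from 6.87 ± 0.455 to 21.0 ± 0.0993 CPM. FOS was at 10.7 ± 3.93 CPM in WT and 7.02 ± 0.643 CPM in KO and was not called. In HEK293T 0 members of these 4 lists were called, with 3 of 16, 0 of 12, 5 of 17 and 1 of 13 genes tested at an unadjusted p below 0.05, beside 1354 of all 19018 genes.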

How the data were processed

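RNA-seq counts of 10 libraries were used, 3 WT and 3 KO of HEK293T and 2 WT and 2 KO of NPCs. The authors mapped reads of stranded mRNA libraries to hg19 with HISAT2, counted them per gene with featureCounts and deposited raw counts without normalization, as the submitters' processing notes and the study's methods give it. The methods state a strand setting for the mapping of stranded reads, but the versions and the strand option of featureCounts are not given in the sources used here. Symbols, biotypes, exon lengths and hg19 coordinates were taken from GENCODE lifted to hg19, in which 23273 of 24050 identifiers were found, and promoter sequences from RefSeq on GRCh38.p14. For ADAMTS10, which has more than 1 promoter in the table, the first was used.

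The tests were run in R 4.3.3 with edgeR 4.0.16 (TMM, quasi-likelihood test, two-sided, Benjamini-Hochberg adjustment over all genes tested), each cell type by itself, after discarding genes with fewer counts in total than libraries. Calls needed both an adjusted p under 0.05 and a fold above 2, in either direction. SEs are the log2 FC divided by the square root of the F statistic. Alternatives were DESeq2 1.42.0, voom with limma 3.58.1, other scalings, filters, thresholds and definitions of the members, robust estimation, all 10 libraries in one fit, and each library left out in turn. Genes named with values were members called in any comparison, the TIMP genes and members with a mean of at least 1 CPM in any group, and a few low members were named beside them after their values were seen. The members and lists were chosen with earlier results of these data known. Replicates differed by more than sampling noise, so each library counted as 1 replicate. The labels hold no pairing between WT and KO.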

Additional observations from a re-analysis of the deposited data

Results flagged for a closer look

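The effect of the KO differed between NPCs and HEK293T by the interaction test for 13 members, given here as the log2 FC in NPCs minus that in HEK293T. It was higher in NPCs for ADAMTS17 (5.22), MMP25 (4.96), ADAMTSL5 (4.03), MMP15 (2.49), ADAMTS1 (2.25) and TIMP3 (1.66). It was also higher for ADAMTS14 (7.23) and ADAMTS4 (4.14), but these genes had 6 and 22 counts over all HEK293T libraries, so the size of the difference depends on the prior count of the fit and is no bound. It was lower for ADAMTS8 (-5.75), ADAMTS19 (-5.06), ADAMTS3 (-2.88), MMP2 (-2.78) and MMP11 (-2.49). Sizes also rest on few counts for ADAMTSL5, ADAMTS17 and MMP25, which were at or near the floor in at least 1 WT NPC library, and for ADAMTS8 and ADAMTS19, which were so in KO NPCs. Over the alternatives they ranged from 3.05 to 7.51 for ADAMTSL5, from 4.92 to 5.49 for ADAMTS17, from 4.06 to 7.48 for MMP25, from -9.75 to -4.75 for ADAMTS8 and from -7.02 to -3.44 for ADAMTS19. The range was 6.26 to 10.7 for ADAMTS14 and 3.38 to 4.86 for ADAMTS4. The highest values for ADAMTSL5, MMP25 and ADAMTS14 came without NPC WT library S5, and the lowest for ADAMTS8 and ADAMTS19 without NPC KO library S1. MMP11 was at -3.25 without NPC KO library S2 and TIMP3 at 2.25 without NPC WT library S3. Each of these 13 had an adjusted p below 0.05 in edgeR.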

How the results depend on the processing

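In HEK293T 0 members were called under every alternative run, DESeq2 and voom included. In NPCs 14 members were called higher and 7 lower. Leaving out each library in turn gave 8 to 18 higher and 6 to 8 lower, the lowest count of higher calls being without KO library S1. At an adjusted p below 0.01 there were 10 higher and 4 lower. Of the 21 calls, 11 were kept in all 12 alternatives of scaling, filter, test or left-out library: MMP2, MMP14, MMP15, MMP25, ADAMTS1, ADAMTS3, ADAMTS4, ADAMTS7, ADAMTS8, ADAMTS9 and ADAMTS17. TIMP4 was kept in 6 of 12, ADAMTS5 in 7 of 12 and ADAMTSL5 in 8 of 11. Without WT library S3 the genes TIMP1, TIMP2 and MMP10 were called too, and without WT library S5 MMP16, MMP1, ADAMTS16 and ADAMTSL4. Calls of MMP16 and TIMP1 were gained without KO library S2, and of ADAMTS20 with all 10 libraries in one fit. For the difference between cell types, 8 members were higher and 5 lower. Leaving out each library in turn gave 3 to 9 higher, with 5 without HEK293T WT library S16, 4 without S17, 5 without NPC WT library S5 and 3 without NPC KO library S1, and 4 to 6 lower. At an adjusted p below 0.01 there were 2 higher and 3 lower. No call changed direction. With 1 NPC library left out the lone library of its group is assumed to vary like the others, and the cause of the lost calls was not tested. No paired analysis was possible because no label pairs the libraries. ADAMTS14, ADAMTSL5 and ADAMTS8 had 0 to 3 counts in each library of 1 NPC group, and their NPC values are given with counting intervals.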
